A study of Mus musculus with 2 samples.

Results

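A block of 13 adjacent rows of the scRNA-Seq count matrices, R34039 to R34051 of 34099 rows in all, took nearly the same share of the summed counts in control and *Supt6*-KO mouse epidermis, while its level spread more widely between *Supt6*-KO cells. Of the UMIs of control cells 3.13% came from the block, and of those of *Supt6*-KO cells 3.03%. A UMI, or unique molecular identifier, stands for 1 captured RNA molecule. The matrices number their rows and do not name them, so the rows are candidates for mitochondrial transcripts and each is called here by its row number. The rows were selected on measured values, namely their high levels side by side, so the levels that picked them are given as a description.

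There was 1 control library and 1 *Supt6*-KO library of dorsal epidermis, both collected on day 5 after the last injection. Per the labels the control mouse was WT and received corn oil, whereas in the study's text control mice given corn oil are *Supt6* fl/fl, so the genotype of the control is uncertain. The other mouse, with the genotype label *Supt6* knockdown, received tamoxifen. Tamoxifen activates a Cre recombinase under the K14 promoter, which is active in basal keratinocytes. In its scRNA-Seq the paper reports reduced *Supt6* expression above all in basal, suprabasal and dividing keratinocytes. Genotype, injected compound, mouse and library cannot be told apart. Neither the *Supt6* level nor keratinocyte markers were analysed here, because both need row names. With 1 library per group nothing was tested between the groups. Each interval is a 95% exact interval for counting error, binomial for a share and conditional on the total for a ratio, and holds none of the variation between mice.

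Mitochondria carry a small circular genome of their own. Its protein-coding genes all encode subunits of the respiratory chain and of ATP synthase, the machinery that turns electron transport into ATP. It is transcribed by a dedicated mitochondrial RNA polymerase and not by RNA polymerase II, the enzyme that SPT6, the product of *Supt6*, accompanies during elongation. The long transcripts from each strand are cut into single messages, most of which gain a short poly(A) tail and can be caught on poly(A) capture beads. In scRNA-Seq the share of mitochondrial UMIs per cell is widely used as a measure of cell quality, since cells with leaking membranes lose cytoplasmic RNA before mitochondrial RNA.

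Cells were barcodes with at least 500 detected rows, 8717 of 9085 in control and 11829 of 12971 in *Supt6*-KO. They held 104134125 and 115742647 UMIs, with medians of 10387 (quartiles 6157 and 15313) and 8631 (4542 and 13517) per cell. The libraries shared 17 cell barcodes, which is 0.195% of control and 0.144% of *Supt6*-KO cells.

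The rows just outside the block were lower than those just inside, although not lower than each of its rows. Just inside it, R34039 stood at 2417 UMIs per 1000000 (CPM) in control beside 2519 in *Supt6*-KO. Just outside, R34038 stood at 87.9 and 53.5 CPM, R34037 at 0.0960 and 0.147 CPM and R34036 at 1.38 and 0.389 CPM. At the other edge R34051 stood at 2855 and 2735 CPM, and each of R34052, R34053 and R34054 had 0 UMIs in both libraries. The block lies near the end of the matrix. Of the 48 rows that follow it, 6 had a UMI in control and 4 in *Supt6*-KO, and 1 of them, R34099, reached 20 CPM, with 57.1 and 35.5 CPM.

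The block was also set beside every other run of 13 consecutive rows. It was chosen for high levels side by side, so its standing among the runs is a description. In control no other run that does not overlap it had a higher sum, with 31297 CPM for the block and 12953 CPM for the next. In *Supt6*-KO the block summed to 30348 CPM and 23 runs were higher, up to 58329 CPM. Of these, 13 contain 1 single row of 57616 CPM and the other 10 do not. All 13 rows of the block reached 20 CPM. Among the 34062 runs that do not overlap it, at most 12 rows of a run did so in control and 10 in *Supt6*-KO.

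The rows differed widely from each other, and their levels kept nearly the same order in both libraries. R34044 was the most abundant, at 8184 CPM the 4th highest of all control rows and at 8357 CPM the 8th highest of *Supt6*-KO. R34045 followed with 7648 and 7004 CPM. Together these held 50.6% of the block in each library. R34050 was the least abundant, with 24.96 and 32.0 CPM, so that the highest and lowest rows were 328-fold apart in control and 261-fold in *Supt6*-KO. Each UMI counts 1 molecule, and these levels were not divided by transcript length.

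The remaining rows fell into an upper and a lower set. In the upper set the control and *Supt6*-KO levels of R34042 were 3672 and 3833 CPM, R34041 had 3094 and 2645 CPM, and R34048 had 1899 and 1905 CPM. R34040 was the lowest of that set, with 955 and 778 CPM. The rows R34039 and R34051, given above, also belong to it. In the lower set R34046 had 234 and 201 CPM, R34049 had 226 and 260 CPM, R34047 had 53.2 and 44.4 CPM and R34043 had 33.6 and 33.5 CPM. R34043, R34046, R34047, R34049 and R34050 together held 1.83% of the block in control and 1.88% in *Supt6*-KO. Across the 13 rows the Pearson correlation of log2 CPM between the libraries was 0.998 and the Spearman correlation 0.989. These are across rows of 2 libraries that share a build and a kit.

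**Figure D1:**
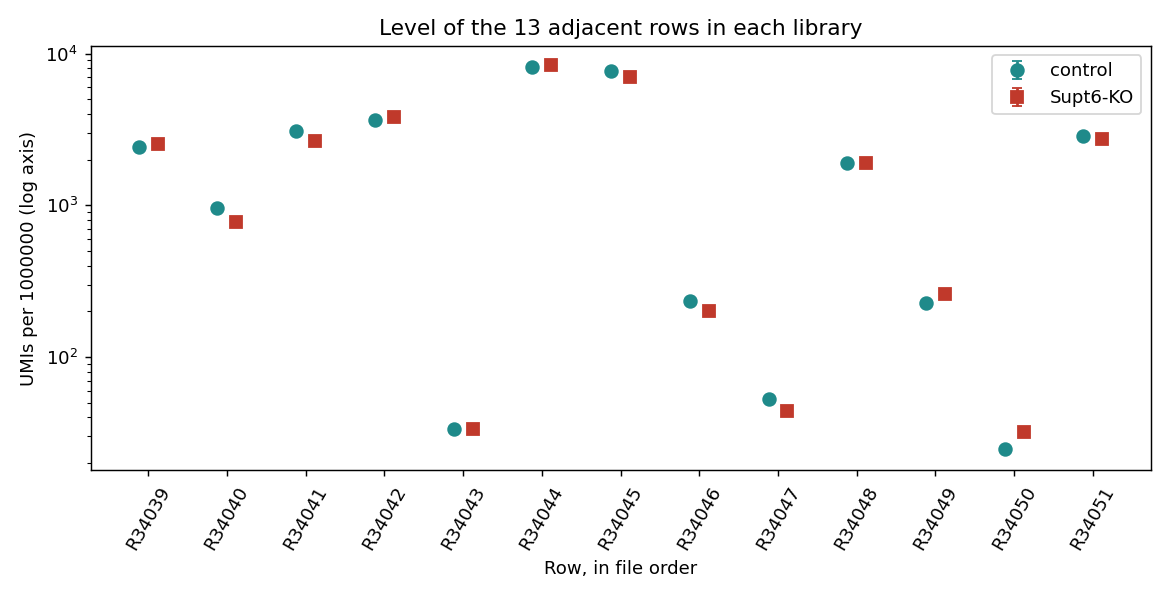
UMIs per 1000000 of each of the 13 rows in file order, on a log axis, in control (circles) and *Supt6*-KO (squares), with counting intervals that are smaller than the symbols. The 2 libraries show the same profile, from R34050 at 24.96 and 32.0 CPM to R34044 at 8184 and 8357 CPM.

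The profile was compared with the order of the protein-coding genes on the mouse mitochondrial chromosome. The reference annotation is GENCODE M21 on GRCm38, an earlier build than the GRCm39 of the files, so only order, strand and relative length were used. It holds 13 such genes, the number to which the choice of the block was fitted, so the match in number is no evidence. A single one of these lies on the opposite strand, at the 12th place, and R34050 at the 12th place of the block was the lowest row in both libraries. The 3 lowest rows were at places 5, 9 and 12 in both libraries. The 3 shortest genes of the reference are at places 5, 8 and 9, and rows R34043, R34046 and R34047 at those places all belong to the lower set. The longest gene, at place 11, goes against that order, since R34049 at that place is also in the lower set.

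Length and level did not follow each other closely. Over the 13 places the Pearson correlation of log2 reference length with log2 CPM was 0.598 in control and 0.612 in *Supt6*-KO, and the Spearman correlation was 0.341 and 0.385. The annotation holds 4 overlapping pairs of neighbouring genes, after places 5, 6, 9 and 11, and reads from such stretches could be split or dropped by the counting. If the rows are these genes in this order, the low values at places 5, 9 and 12 are uncertain for that reason. The comparison rests on order and level, and no row was given a gene name.

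Nearly every cell had a UMI of the abundant rows. R34044 was detected in 99.7% of control and 99.8% of *Supt6*-KO cells, and R34045 in 99.8% and 99.7%. R34040 was detected in 98.2% of control and 91.1% of *Supt6*-KO cells, and R34046 in 85.6% and 68.7%. R34050 was seen in 21.3% and 21.1%, and R34043 in 30.9% and 25.8%. *Supt6*-KO cells were shallower, so cells were also thinned at random to 2000 UMIs, which left out 569 control and 1195 *Supt6*-KO cells.

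At equal depth a median of 9 of the 13 rows (quartiles 8 and 10) was detected per control cell and of 8 (7 and 9) per *Supt6*-KO cell, beside 11 and 10 without thinning. R34040 was detected in 80.9% of thinned control and 67.8% of thinned *Supt6*-KO cells. R34039 was detected in 96.4% and 90.2%, and R34041 in 98.3% and 92.7%. The difference ran the other way for R34049, at 38.4% and 40.1%, and for R34050, at 6.12% and 6.92%. Thinned to 1000 UMIs, the median was 8 rows in both libraries. RNA released from broken cells also gives UMIs of such abundant rows, and its part in these shares was not tested.

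Counts of the abundant rows also spread more in *Supt6*-KO cells thinned to 2000 UMIs. The variance of R34044 over cells was 18.6 times its mean in control and 26.8 times in *Supt6*-KO, and that of R34039 was 5.18 and 8.61 times. The difference was smaller for R34048, at 4.30 and 5.18 times, and slight for R34041, at 6.82 and 7.03 times. Sampling alone would give a ratio near 1. The rows moved together from cell to cell. Among the 28 pairs of the 8 rows of at least 500 CPM, the correlation over thinned cells ranged from 0.546 to 0.931 in control, with a median of 0.788, and from 0.606 to 0.932 in *Supt6*-KO, with a median of 0.804. In both libraries R34044 and R34045 formed the closest pair and R34040 and R34041 the most distant. Cells of 1 library share it and are not replicates.

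The second question was whether the block changed as a whole. Its share of UMIs was 3.13% (interval 3.126 to 3.133) in control, from 3259041 UMIs, and 3.03% (3.032 to 3.038) in *Supt6*-KO, from 3512523 UMIs. The ratio was 0.970 (0.968 to 0.971), or −0.044 on the log2 scale. Its direction depended on the scaling, with a log2 ratio of 0.12 with TMM factors and 0.21 over UMIs outside the other rows of at least 1000 CPM. There were 164 such rows, and they held 36.5% of control and 46.8% of *Supt6*-KO UMIs. No direction is therefore given for the summed level.

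On the CPM scale the block moved less than most other rows. The sizes and counts below were taken on that scale alone, and TMM factors would shift all rows by the same amount. Over the 5990 rows that reached 20 CPM in the library where they were higher, the median log2 ratio of CPM was −0.32 (quartiles −0.77 and 0.19). Over the 13 rows of the block it was −0.0032 (quartiles −0.22 and 0.060), between −0.30 for R34040 and 0.36 for R34050. All 13 rows lay above the median of all rows, most of which were of lower abundance. The other rows of at least 1000 CPM had a median log2 ratio of 0.15, and the 7 rows of the block at that level, from −0.23 to 0.062, all lay below it. One limit was a CPM at least 25% higher or at least 20% lower in *Supt6*-KO, the same fold in either direction. At it 1 row of the block was called higher and 0 lower, beside 19.9% and 50% of the 5990 rows. At 1.1-fold, 2 rows of the block were higher and 4 lower, beside 27.7% and 59.8%. At 1.5-fold none was called in either direction, beside 11.9% and 34.8%, and at 2-fold none, beside 5.11% and 16.1%. These counts are a description, since the rows were picked from the same libraries.

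Within the block, the share of each row can be compared without regard to the other transcripts. The composition was close in the libraries, and 3.24% of block UMIs would have to move between rows to turn one profile into the other. Without thinning the furthest shift was in R34050, which made up 0.0797% of the control block, from 2599 UMIs, and 0.105% of the *Supt6*-KO block, from 3705 UMIs. Its share was 1.32-fold higher (1.26 to 1.39) and it was the only row of the block at least 25% higher. Thinned to 2000 UMIs its ratio was 1.19-fold and no row passed. The log2 ratios of R34047 (−0.278) and R34040 (−0.258) were then larger in size than that of R34050 (0.246). Its neighbour R34049 went from 0.722% to 0.858%, a ratio of 1.19 (1.17 to 1.21). In the barcodes left out for few detected rows both rows had lower shares in *Supt6*-KO, with 0.0928% and 0.0567% for R34050.

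No row of the block was lower by 20% or more. R34040 made up 3.05% of the control and 2.56% of the *Supt6*-KO block, a ratio of 0.840 (0.832 to 0.847). R34047 had a ratio of 0.862 (0.830 to 0.896), R34041 of 0.882 and R34046 of 0.884. For R34041 this was a move from 9.89% to 8.72% of the block. The other rows stayed within 1.1-fold, from 0.944 for R34045 to 1.08 for R34042. For R34043, with a ratio of 1.03 (0.983 to 1.08), the counting interval held 1. The neighbours R34049 and R34050 thus both had higher shares in *Supt6*-KO, and the neighbours R34040 and R34041 both had lower ones.

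The shifts were followed over 5 ranges of UMIs per cell, from under 2000 to 20000 or more. Higher shares in *Supt6*-KO were seen in 5 of 5 ranges for R34039, R34042, R34044, R34049 and R34050, and lower shares in 5 of 5 for R34040, R34041, R34045, R34046 and R34047. R34043, R34048 and R34051 were mixed. The ratio of R34050 lay between 1.18 and 1.58 and that of R34040 between 0.769 and 0.894. R34041 moved between 0.813 and 0.948, and R34047 between 0.624, in the shallowest cells, and 0.904. All 5 counting intervals lay on one side of 1 for each of the rows with the same direction in all ranges, except R34049 and R34039, for which 4 of 5 did. The ranges come from the same 2 libraries and are not replicates.

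**Figure D2:**
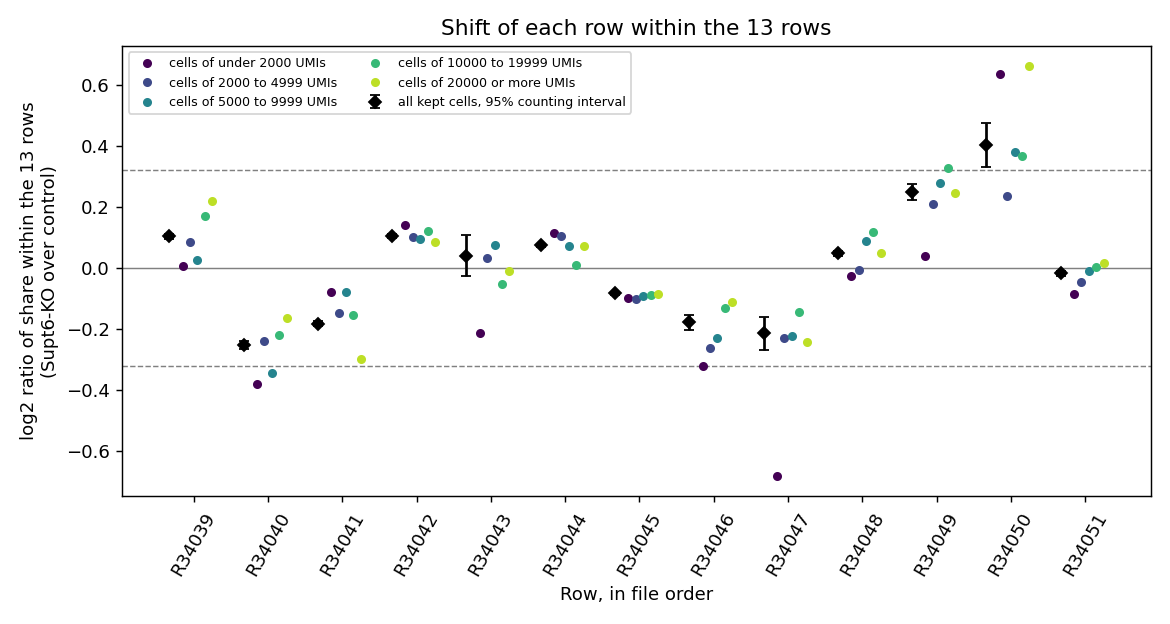
Log2 ratio (*Supt6*-KO over control) of each row's share of the block, over all kept cells (diamonds, with counting intervals) and in 5 ranges of UMIs per cell (coloured points). Dashed lines mark shares 25% higher and 20% lower, the first of which the pooled value of R34050 passes at 1.32-fold, and R34040 lies below 0 in all 5 ranges.

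The spread over cells differed more than the sum. The median share of the block per cell was 3.04% in control, with quartiles of 2.32% and 4.55%, and 3.15% in *Supt6*-KO, with quartiles of 1.82% and 5.03%. The lowest 5% of cells lay below 1.43% in control and below 0.458% in *Supt6*-KO, and the highest 5% above 15.6% and 17.8%. The medians were thus close, and the low end of the *Supt6*-KO library reached further down.

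Cells with under 1% of their UMIs in the block numbered 216 in control, or 2.48% (2.16 to 2.83), and 1485 in *Supt6*-KO, or 12.6% (12.0 to 13.2). Cells of 2% to under 5%, the most common class, made up 62.9% of control and 46.7% of *Supt6*-KO cells. At the upper end 10.6% and 11.3% of cells had at least 10%. Over 20% was seen in 205 control cells, or 2.35%, and in 461 *Supt6*-KO cells, or 3.90%, and over 50% in 2 cells of each library. The class under 1% was singled out after these values were seen, so its numbers here and below are a description.

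**Figure D3:**
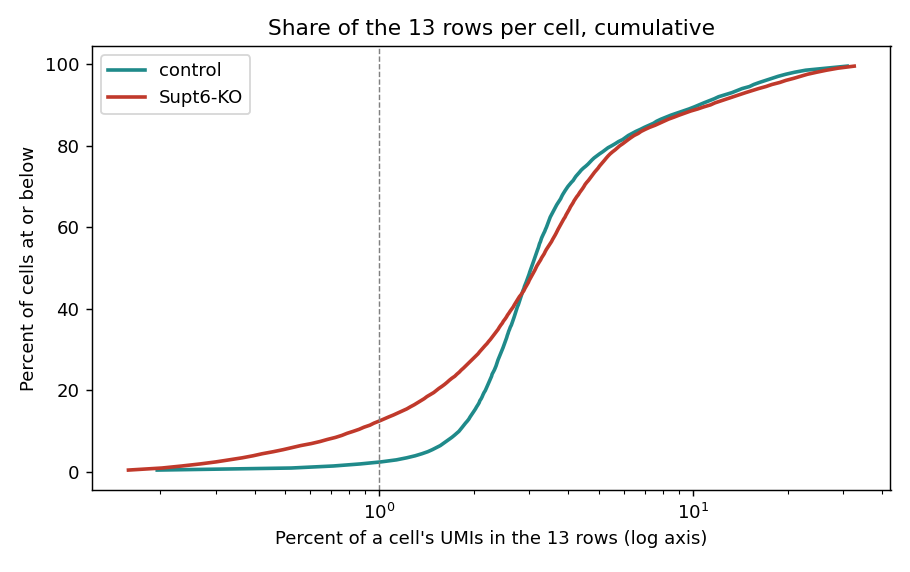
Percent of cells at or below each share of UMIs in the 13 rows, with the share on a log axis, in control and *Supt6*-KO, and a dashed line at 1%. At that line the curves stand at 2.48% and 12.6% of cells, whereas the medians, 3.04% and 3.15%, nearly meet.

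The cells under 1% were not shallow. Their median depth was 10708 UMIs in control and 12936 in *Supt6*-KO, beside 10380 and 8146 in the other cells. A median of 1379.5 rows was detected in these control cells, beside 3059 in the other control cells, and 2615 in these *Supt6*-KO cells, beside 2463. The other rows of at least 1000 CPM took 47.3% of their UMIs in control and 55.0% in *Supt6*-KO, beside 36.2% and 45.0% in the remaining cells. The most abundant *Supt6*-KO row took 8.63% of the UMIs of the *Supt6*-KO cells under 1% and 5.13% in the remaining *Supt6*-KO cells.

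A large share of other abundant transcripts lowers the share of the block by arithmetic. Over UMIs outside those rows, cells under 1% made up 1.07% of control and 4.99% of *Supt6*-KO cells. Those rows held 36.5% of control and 46.8% of *Supt6*-KO UMIs, so the 1% limit is not alike in the libraries. The part of abundant transcripts in the difference was not tested. Among cells of 10000 to under 20000 UMIs, 2.16% of control and 15.4% of *Supt6*-KO cells lay under 1%, and among those of 5000 to under 10000 UMIs, 0.908% and 8.39%. The difference had the same direction in both of these ranges, and the other ranges of depth were not counted for it.

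Composition of the block also differed in these cells. R34051 made up 12.8% of the block in control cells under 1% and 15.4% in *Supt6*-KO cells under 1%, beside 9.12% and 9.01% over all cells. R34044 fell back to 22.2% and 22.1%, beside 26.2% and 27.5%. R34041 stood at 12.8% in control and 9.14% in *Supt6*-KO. R34050 made up 0.0836% of the block there in control, from 15 UMIs, and 0.0464% in *Supt6*-KO, from 52 UMIs. The intervals of these 2 shares, 0.0468 to 0.138 and 0.0346 to 0.0608, overlapped, so no direction is given for it in these cells. R34049, higher in *Supt6*-KO over all cells, made up 0.891% (0.759 to 1.04) there in control and 0.766% (0.716 to 0.819) in *Supt6*-KO. Its intervals overlapped too.

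The share of the block fell with depth in both libraries. In control it was 15.5% in the 569 cells under 2000 UMIs, 8.50% from 2000, 3.70% from 5000, 2.78% from 10000 and 2.33% in the 1089 cells of at least 20000 UMIs. In *Supt6*-KO the same ranges gave 13.9%, 6.97%, 3.59%, 2.49% and 1.77%, with 1195 cells in the first and 925 in the last. The first range was 6.66 times the last in control and 7.85 times in *Supt6*-KO. The order of the ranges was the same in both.

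Within each range the share of summed UMIs was lower in *Supt6*-KO, although the pooled shares were nearly equal. These are shares of all UMIs, and the scalings that turned the pooled direction were not applied within ranges. The ratios from the shallowest to the deepest range were 0.898, 0.820, 0.971, 0.897 and 0.762. Weighted to the control numbers of cells, the log2 ratio was −0.18, beside −0.044 pooled, and the *Supt6*-KO library had a larger share of shallow cells, in which the block is high. The median over cells was lower in *Supt6*-KO in 4 of 5 ranges and higher from 5000 to under 10000 UMIs, at 3.47% beside 3.28% in control. In the deepest range the lower quartile over cells was 1.81% in control and 0.646% in *Supt6*-KO, the medians were 2.23% and 1.69%, and the upper quartiles were 2.79% and 2.76%. The difference in deep cells thus lay at the lower quartile and the median, and the upper quartiles were close.

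**Figure D4:**
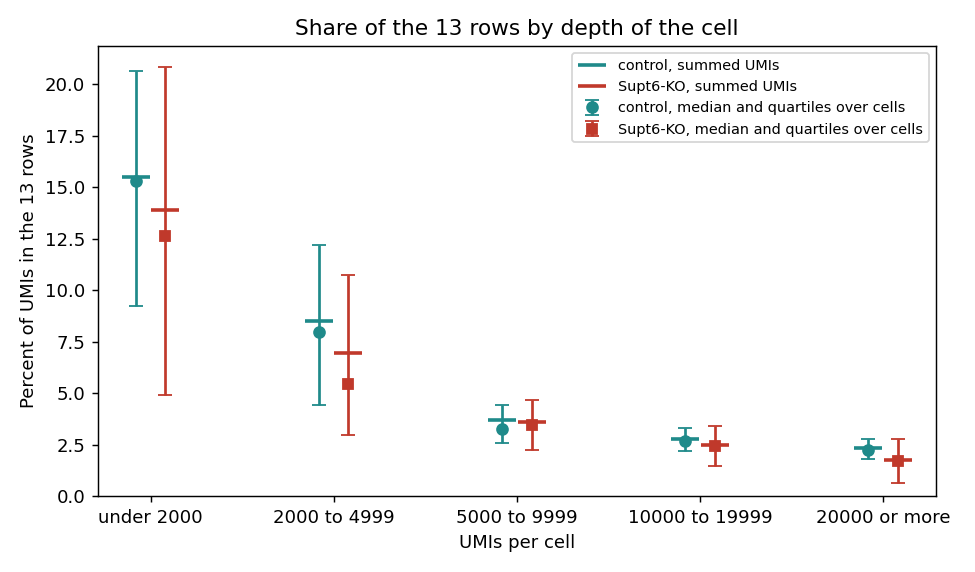
Percent of UMIs in the 13 rows by UMIs per cell, as the median and quartiles over cells (points and bars) and over summed UMIs (short lines), in control and *Supt6*-KO. The summed share falls from 15.5% to 2.33% in control and from 13.9% to 1.77% in *Supt6*-KO, and lies lower in *Supt6*-KO in all 5 ranges, whereas the median over cells is higher in *Supt6*-KO, at 3.47% beside 3.28%, in the middle range.

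The rows did not change with depth in step. R34044 fell from 27.6% of the control block in the shallowest cells to 24.3% in the deepest, and from 29.95% to 25.5% in *Supt6*-KO. R34041 rose from 8.85% to 11.1% in control and from 8.38% to 9.06% in *Supt6*-KO. R34039 rose from 6.97% to 8.02% and from 7.01% to 9.34%. R34042 was the steadiest of the abundant rows, between 11.6% and 11.9% in control and between 12.4% and 13.03% in *Supt6*-KO.

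Cells were also grouped into clusters built separately in each library without the 13 rows. Their number and settings were chosen after values were seen, and the clusters have no cell type names, because markers need row names. The block share ranged from 1.49% to 13.5% over the 19 control clusters of at least 50 cells, with a median of 3.25%, and from 1.26% to 11.3% over 14 *Supt6*-KO clusters, with a median of 3.76%. The highest clusters were shallow, with median depths of 2119 UMIs (196 cells) in control and 2220 UMIs (891 cells) in *Supt6*-KO. The lowest had medians of 16447 UMIs (181 cells) and 14118 UMIs (633 cells). In these lowest clusters 39.2% of control and 41.7% of *Supt6*-KO cells had under 1% in the block.

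The cells under 1% were found in many clusters, at unequal shares. In *Supt6*-KO, beside 12.6% over the library, they made up 41.7% of a cluster of 633 cells, 25.4% of one of 1834 and 19.0% of one of 909, and 13.3% of the largest, of 2166 cells. In control, beside 2.48%, they made up 39.2% of a cluster of 181 cells and 12.5% of one of 329. All 14 *Supt6*-KO clusters of at least 50 cells held some, from 0.337% to 41.7% of their cells. In control 13 of 19 did, 3 of these with 1 such cell each, and the other 6 held none. Within the block, R34042 ranged from 11.2% to 12.5% over control clusters and from 11.6% to 14.8% over *Supt6*-KO clusters. R34041 ranged from 7.499% to 13.6% and from 6.72% to 11.9%, and R34040 from 2.30% to 3.85% and from 1.70% to 3.10%. These spreads were wider than the pooled shifts of the same rows between the libraries. The pooled *Supt6*-KO shares of R34040 and R34041, 2.56% and 8.72%, lay inside their ranges over control clusters. That of R34042, 12.63%, lay above its highest control cluster, at 12.53%. Whether a change in the mix of cells shifted the pooled composition was not tested.

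**Figure D5:**
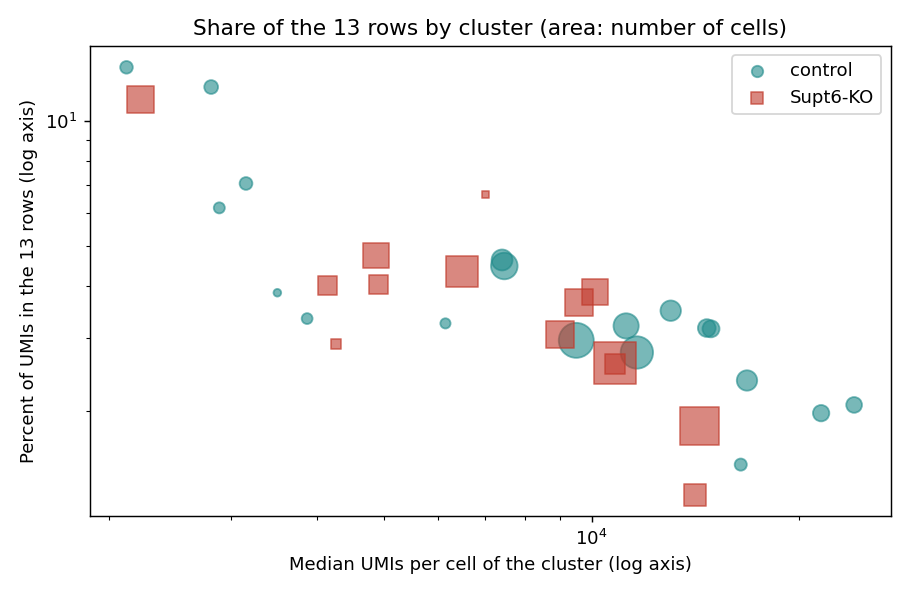
Percent of UMIs in the 13 rows against the median UMIs per cell for clusters of at least 50 cells, both on log axes, with symbol area for the number of cells. The highest clusters, at 13.5% in control (circles) and 11.3% in *Supt6*-KO (squares), are shallow, and the lowest, at 1.49% and 1.26%, are deep. Other shallow clusters lie lower, such as a control cluster at 3.34% (median 3871 UMIs) and a *Supt6*-KO cluster at 2.90% (4267.5 UMIs).

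Cells with a UMI of 1 further row in each library were set beside the cells without one. In *Supt6*-KO the 3203 cells with a UMI of R06163 had 2.38% of UMIs in the block and the 8626 cells without had 3.37%. Their median depths were 11244 and 7825.5 UMIs. In control the 5955 cells with a UMI of R06625 had 2.92% and the 2762 cells without had 3.89%, with median depths of 11710 and 7712.5 UMIs. In both cases the cells with a UMI were deeper, and the part of depth in these differences was not tested.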

How the data were processed

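Epidermal cells were captured with the 10x Chromium kit for transcript 3ʹ ends, and the authors deposited raw UMI counts per row and barcode, as whole numbers without normalization. Per the labels the submitters' processing notes name Cell Ranger 7.1.0, STAR, Seurat 4.1.1 and the build GRCm39. The annotation release and any use of strand in counting were not given in the sources used here. Loss of cells before deposit, and reads shared by overlapping genes, could change the shares.

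The 13 rows and the lists were chosen with earlier results of these data known. All 13 are named, with 3 rows on either side. Cells with at least 500 detected rows were kept, doublets included, because the automatic Scrublet threshold marked 2 control and 3 *Supt6*-KO cells. Counts were summed over cells and scaled to CPM, and a row was called when it was at least 25% higher or 20% lower. Thinning drew 2000 or 1000 UMIs per cell at random. Clustering used scanpy 1.11.5 with 2000 rows, 30 components, 20 neighbours and a resolution of 0.8. TMM factors came from edgeR 4.0.16. Sums used numpy 2.4.6 and pandas 2.3.3 under Python 3.11.15, and intervals scipy 1.17.1. No test was possible with 1 library per group, and UMI counts carry counting error only in the intervals. Alternatives changed the cell filter, doublets, scaling, fold, weighting and thinning.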

Additional observations from a re-analysis of the deposited data

How the results depend on the processing

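No paired analysis was possible because a single library stood for each group. The block's share of UMIs, in control and then *Supt6*-KO, was 3.23% and 3.32% without a cell filter (log2 ratio 0.038), 3.05% and 2.88% with at least 1000 detected rows (−0.085), 3.17% and 3.07% without the 8% of cells with the highest doublet score, and 3.05% and 2.87% in cells of at most 20% (−0.087). It was 4.74% and 4.88% as a mean per cell (0.040), and 4.93% and 5.71% outside the other rows of at least 1000 CPM (0.21). The log2 ratio was 0.12 with TMM factors and −0.18 weighted by depth. Its sign thus changed with the setting. Within the block 2 rows were higher and 4 lower at 1.1-fold, 0 higher at 1.5-fold and 0 higher after thinning to 2000 UMIs, and 1 was lower by the mean per cell. Over 7 alternatives 11 of 13 rows kept the sign of their shift in 7, and R34043 and R34051 in 6. R34050 ranged from 1.19 to 1.36, R34049 from 1.15 to 1.20 and R34040 from 0.761 to 0.847. Without a filter the shallowest cells had 9.78 times the share of the deepest in control and 13.1 times in *Supt6*-KO. The number of detected rows was 11 and 10 without thinning. Cells under 1%, an alternative chosen after seeing the data, made up 11.9% of *Supt6*-KO without a filter, 1.89% of control with at least 1000 rows, 1.07% and 4.99% outside the other abundant rows, 15.4% of *Supt6*-KO from 10000 UMIs, and 0.908% and 8.39% from 5000 UMIs. The cause of these moves was not tested. Single libraries limit all comparisons to differences between 2 mice, and rows of few UMIs, such as R34050, limit the precision of the shares.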

Other observations

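The 368 control and 1142 *Supt6*-KO barcodes with under 500 detected rows were left out of the comparisons, apart from the alternative without a cell filter. The block held 46.0% of their UMIs in control and 43.1% in *Supt6*-KO. Within the block R34044 made up 28.0% there in control and 32.8% in *Supt6*-KO, and R34041 made up 8.51% and 4.65%, beside 9.89% and 8.72% in the kept cells. R34050 and R34049, whose shares were higher in *Supt6*-KO among the kept cells, were lower there. R34050 made up 0.0928% (0.0761 to 0.112) of the block in control and 0.0567% (0.0491 to 0.0650) in *Supt6*-KO, and R34049 made up 0.880% and 0.610%.

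Rows outside the block of at least 100 CPM were correlated with the sum of the block over thinned cells, as a description. For this the block was left out of the total, and 8031 control and 10393 *Supt6*-KO cells were used. Over 1799 such rows in control the median correlation was 0.017, and over 1416 in *Supt6*-KO it was −0.0035. The 3 highest values were 0.452, 0.417 and 0.394 in control and 0.442, 0.401 and 0.363 in *Supt6*-KO, and they came from the same 3 rows in both libraries. The lowest value was −0.455 in control and −0.374 in *Supt6*-KO. A correlation over 0.2 was seen for 148 rows in control and 152 in *Supt6*-KO. The points are cells of 1 library that share its depth.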
